A study of Mus musculus with 2 samples.

Results

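Collagens, laminins and the enzymes that cross-link or degrade them form the extracellular matrix, and their transcripts were compared here between livers of ad libitum-fed and calorie-restricted mice. The genes were taken by a rule on their symbols, which was set with earlier results of these data known. A probe set, the group of array probes that reads 1 transcript region, was taken if its only gene symbol in the platform annotation was a numbered collagen chain (Col with a type and a chain number), a laminin chain (Lama, Lamb or Lamc), a tissue inhibitor of metalloproteinases (Timp), a matrix metalloproteinase (Mmp), Lox or Loxl1 to Loxl4. This gave 76 genes with 149 probe sets, of 18193 genes and 45101 probe sets on the array.

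All mice were male C57BL/6J, an inbred strain with no other allele named, 8 weeks old at the start, housed singly and 5 months old per the labels. The AL group ate freely for 12 weeks. The CR group received 20% less food in the first week and 40% less in the following 11 weeks. For each diet, RNA from the livers of 3 mice was combined in equal parts and hybridised to 1 Affymetrix array. There was thus no replicate, no p-value and no measure of how mice varied, and precision is limited by the number of arrays. Every difference below was taken on the log2 scale as CR minus AL. Whole liver was measured, so fewer cells of a type and less RNA per cell cannot be told apart.

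In a healthy liver, hepatic stellate cells, portal fibroblasts and endothelial cells make most of the collagen and laminin, while hepatocytes make the endostatin precursor collagen XVIII and many plasma-borne matrix proteins. Fibrillar collagens form the stiff fibres that accumulate in fibrosis, and collagen IV and laminins form the sheet-like networks of basement membranes and of the space along the sinusoids. Lysyl oxidases cross-link the fibres, matrix metalloproteinases cut matrix proteins, and TIMPs block the metalloproteinases.

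Most of these genes differed little between the pools, and many were dim. Of a gene's probe sets the one with the highest mean log2 intensity was used. The gene counted as measured if this probe set reached 7.38, the median over both arrays, in at least 1 pool. Of the 76 genes, 53 were measured and 23 lay near background. This share was similar to that over all 18193 genes, of which 12644 were measured and 5549 lay near background. The measured matrix genes were dimmer, with a median of the higher of both values of 14.3, against 30.1 over all measured genes. Among the measured genes, 27 stayed under 2 times that limit in both pools, 16 reached the 75th percentile of all values (21.0), and 3 reached an intensity of 100. Counted by probe set, 71 of 149 were measured and 78 lay near background. Because the limit is the median of all values, a large share of all probe sets on the array lies under it by construction.

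At a 2-fold difference, a size limit that is no test, 1 of the 53 measured genes was higher in CR, Col27a1 at exactly the limit, and none was lower. Over all 12644 measured genes, 1.8% were at least 2-fold higher and 2.79% at least 2-fold lower. Differences of 2-fold were rarer among dim genes. They were found higher in 0.316% and lower in 0.612% of measured genes under the 75th percentile, where 37 of the 53 lay, and in 2.78% and 4.25% of those at or above it, where the other 16 lay. The median difference was -0.09 over the 53 genes and -0.02 over all measured genes, with 54.7% and 52.1% of genes below 0. At a difference of 0.5, a size chosen after the values were seen, 6 of the 53 (11.3%) were lower, against 12.3% of all measured genes, and 2 (3.77%) were higher, against 9.21%. The 6 were Col4a1, Col4a2, Col5a3, Col1a2, Col1a1 and Col6a3, and the 2 were Col27a1 and Mmp14. The shares at 0.5 were not split by intensity, so these mostly dim genes are set there beside brighter ones.

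**Figure D1:**
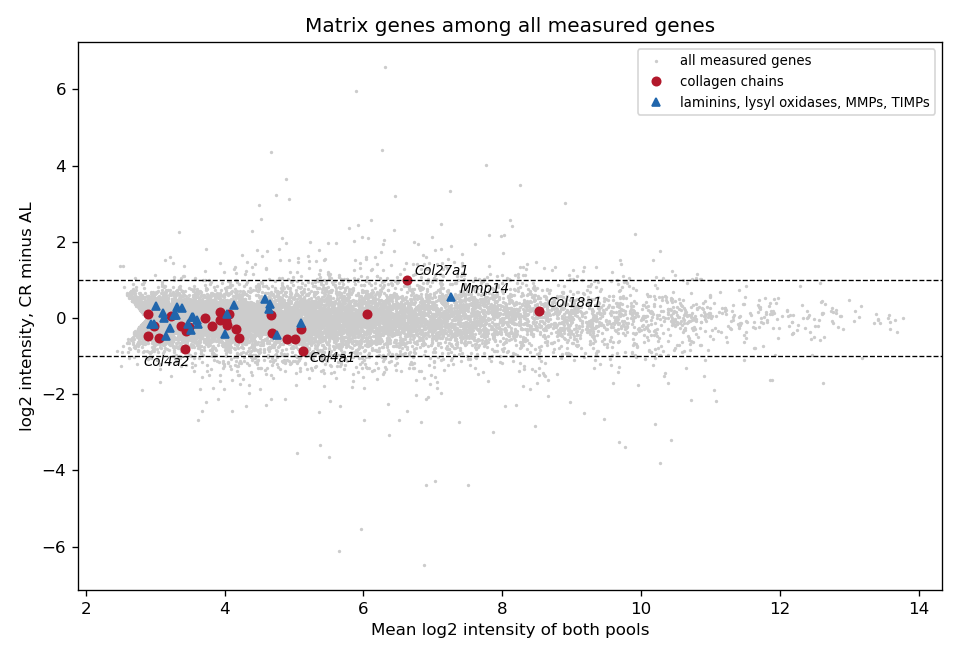
Difference between the pools (log2 CR minus AL, vertical axis) against mean log2 intensity of both pools (horizontal axis) for 12644 measured genes in grey, with 27 collagen chains as circles and 26 other matrix genes as triangles; dashed lines mark 2-fold. The matrix genes lie within 2-fold apart from Col27a1 on the upper line, mostly at low intensity.

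The largest negative differences were those of the collagen IV chains Col4a1 and Col4a2, which assemble together, as the main collagen of most basement membranes, into a trimer with more Col4a1 than Col4a2 chains. Col4a1 had 47.0 in AL and 26.0 in CR, a difference of -0.86 or 1.81-fold. Its other probe set went from 36.1 to 30.9, a difference of -0.23, so the probe sets shared a direction but not a size. The single Col4a2 probe set read 14.3 in AL and 8.08 in CR, a difference of -0.82 or 1.77-fold, with the CR value close to the limit of the measured range. Of all measured genes, 4.25% lay at or below the value of Col4a1 and 4.60% at or below that of Col4a2. Differences of this size were thus not rare among all measured genes. Col4a2 lay under the 75th percentile, where 2-fold lower values were rarer (0.612%), and its rank among genes that dim was not taken. Col4a3, a chain of the kidney and lung basement membrane, read 11.2 in AL and 9.58 in CR, a difference of -0.22. The remaining chains, Col4a4, Col4a5 and Col4a6, lay near background.

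Col4a1 and Col4a2 lie head to head on mouse chromosome 8 and are transcribed in opposite directions from a shared promoter. The stretch between their RefSeq start positions is shown because both chains with the lowest values start there. The starts, at 11312805 for Col4a2 on the plus strand and at 11312826 for Col4a1 on the minus strand, were 21 bases apart in GRCm38.p6. By these positions each gene is transcribed through the stretch, so it lies after both starts and not upstream of either. The stretch chr8:11312805-11312826, plus strand, reads as follows, with a GC box (GGGCGG, a motif bound by Sp1-type factors) in capitals.
Col4a2 start to Col4a1 start: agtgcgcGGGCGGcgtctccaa
The RefSeq promoter windows of 300 bases (250 before to 50 after a start) of both genes were searched on both strands for the GC box (GGGCGG), the CCAAT box (CCAAT) and the TATA box (TATAAA), each counted on its own. The GC box occurred 3 times in the Col4a2 window and 1 time in that of Col4a1. The CCAAT box occurred 1 time in each window, and the TATA box was not among the letters of either. The windows share 78 bases, so the GC box shown was counted in both. Its first base lay 7 bases after the start in the Col4a2 window and 9 bases after the start in that of Col4a1. Promoter windows were found for 54 of the 76 genes, 61 windows in all. Of these, 54.1% held a GC box, against 35.6% of 32817 windows of all genes. A CCAAT box was in 32.8%, against 37.4%, and a TATA box in 19.7%, against 13.6%. Over the 41 windows of measured genes alone the shares were 56.1% for the GC box, 36.6% for the CCAAT box and 9.76% for the TATA box, the last on the other side of the share in all windows. These are descriptions of the letters and not of factor binding. The windows of all genes were taken without regard to gene type, protein-coding or not, so the sets compared may differ in that as well.

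Fibrillar collagens were lower in CR for 6 of 7 measured genes, with a median of -0.47, or -0.29 with values under the limit set to it, and differences short of 1.5-fold in those 6. Col1a2, a chain of type I collagen, the main fibre of scar tissue, had 36.2 in AL and 24.8 in CR, a difference of -0.55. Its partner chain Col1a1 read 9.96 in AL and 6.86 in CR, a difference of -0.54. The CR value of Col1a1 was under the limit, which bounds its difference at 1.35-fold or more. Col3a1, the chain of type III collagen that accompanies type I in soft tissue, stood at -0.29, from 19.8 to 16.2. All 3 of these genes also had other probe sets, and those lay near background in both pools.

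Type V collagen chains control the diameter of type I fibres. Col5a3 had 39.1 in AL and 26.6 in CR, a difference of -0.56. Col5a1 stood at -0.09, from 16.7 to 15.7, and its other measured probe sets at -0.21 and -0.41, all 3 in the same direction. Col5a2 lay near background. The cartilage chain Col2a1 was barely above the limit in AL at 8.75 and under it in CR at 6.33. Its difference was -0.47, or 1.19-fold or more against the limit.

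Col27a1, a fibrillar collagen known best from cartilage, went the other way. Its brighter probe set read 70.1 in AL and 140.2 in CR, a log2 difference of 1, which placed it last among the 227 genes at least 2-fold higher. Its other probe set, at 36.0 and 36.2, stood at 0.01. The value for the gene thus depended on which probe set was read, and the mean of both was 0.51.

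**Figure D2:**
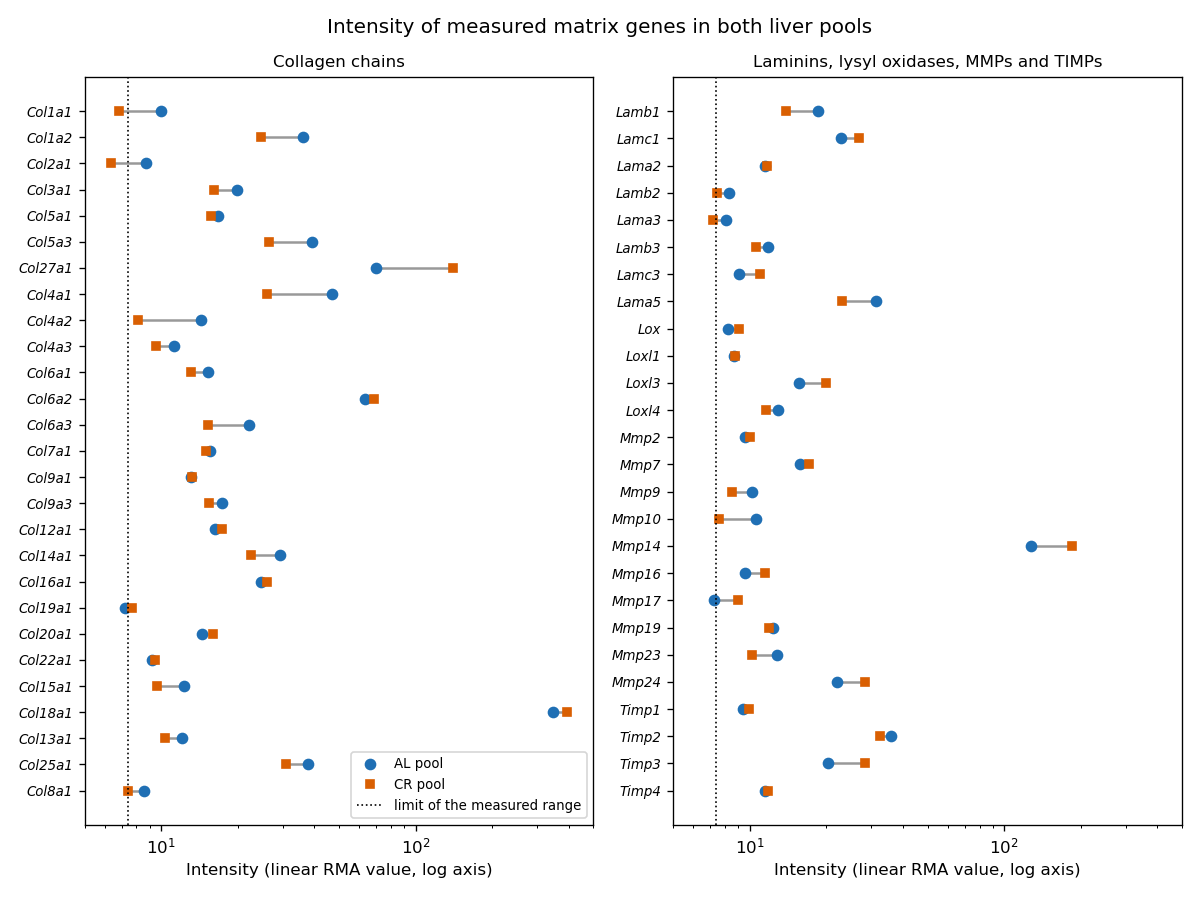
Intensity (linear scale values on a log axis) of the 53 measured matrix genes in the AL pool (circles) and the CR pool (squares), with collagen chains on the left and laminins, lysyl oxidases, metalloproteinases and TIMPs on the right; the dotted line marks the limit of 7.38. On the brightest probe set of each gene, Col4a1, Col4a2, Col1a2 and Col5a3 lie lower in CR, and Col27a1, Mmp14 and Timp3 higher. Not all other measured probe sets follow, with 0.01 for Col27a1 and down to -0.21 for Timp3. Levels of different probe sets are not comparable.

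Collagen VI, a beaded microfibril around cells, and collagen VII, the anchoring fibril of skin, were measured in 4 chains with a median of -0.13. Col6a3 was the lowest of them at -0.53, with 22.2 in AL and 15.3 in CR. Col6a1 stood at -0.21, from 15.2 to 13.1, while Col6a2 stood at 0.11, from 63.4 to 68.6, and its other probe set at 0.03. The 3 chains, which form 1 trimer, thus did not share a direction. Col7a1 read 15.62 and 15.04, a difference of -0.05. Col6a4 and Col6a5 lay near background.

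Fibril-associated collagens sit on the surface of fibres and link them to other matrix. Their 8 measured genes had a median of 0.06, with 6 above 0 and 2 below. Col14a1, found on type I fibres of skin and tendon, had the largest absolute difference, -0.39, with 29.4 in AL and 22.5 in CR, and a second measured probe set at -0.27. Col9a3 stood at -0.18, from 17.4 to 15.4. The other 6 lay between 0.01 and 0.14. Among these, Col16a1 read 24.8 in AL and 26.0 in CR, and Col12a1 16.2 and 17.3. Col20a1 had the highest value, 14.47 against 15.98, and its second measured probe set read 10.2 in both pools. Col9a1 read 13.1 and 13.2, Col22a1 9.173 and 9.495, and Col19a1 7.19 in AL, under the limit, and 7.67 in CR.

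Collagen XVIII, whose end fragment is endostatin and which hepatocytes make, was with Col27a1 and Mmp14 among the 3 genes that reached an intensity of 100. Its brighter Col18a1 probe set had 348 in AL and 393 in CR, a difference of 0.18, and the other had 149 and 105, a difference of -0.50. The probe sets therefore disagreed in sign, and no direction can be given for the gene. The related Col15a1 stood at -0.35, with 12.3 and 9.65. The transmembrane collagens Col25a1 and Col13a1 stood at -0.28, from 37.6 to 31.0, and at -0.23, from 12.1 to 10.4. Col8a1, a short-chain collagen of vessels, read 8.53 in AL and 7.37, just under the limit, in CR.

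Over all 27 measured collagen genes, 18 lay below 0 and 9 above, with a median of -0.21. Over the other 26 matrix genes, 11 lay below 0 and 15 above, with a median of 0.02. The difference between the collagens and the others was not tested. Of all measured genes, 52.1% lay below 0, with a median of -0.02. Each gene was counted on its brightest probe set, also where its probe sets differed in sign, as for Col18a1.

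Laminins are trimers of an alpha, a beta and a gamma chain. Of 8 measured laminin genes, 5 lay below 0 and 3 above, with a median of -0.15 and no difference of 1.5-fold. The ubiquitous chains went both ways. Lamb1 had 18.6 in AL and 13.9 in CR, a difference of -0.42. Its usual partner Lamc1 had 22.9 and 26.9, a difference of 0.24, and a second measured probe set at -0.20. Lama5, the alpha chain of mature vessels and epithelia, stood at -0.44 on its brighter probe set, from 31.4 to 23.1, and at 0.41 on the other, from 10.9 to 14.4. For Lamc1 and Lama5 the probe sets thus disagreed in sign. The remaining laminin genes stayed under 2 times the limit. Lama2, the muscle chain, read 11.5 and 11.7, and Lamb2 8.28 and 7.46. Lamb3, of epidermal laminin, read 11.7 and 10.6, and its partner Lama3 8.08 in AL and 7.20, under the limit, in CR. Lamc3 stood at 0.28, from 9.05 to 11.0.

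Lysyl oxidases oxidise lysines of collagen and elastin so that the fibres cross-link. The 4 genes had a median of 0.07, with 3 above 0. Loxl3 read 15.6 in AL and 19.8 in CR, a difference of 0.35, and Loxl4 read 12.9 and 11.6, a difference of -0.15. Lox itself and Loxl1, which acts on elastin, lay just above the limit, with 8.25 and 9.04 for Lox and 8.70 and 8.72 for Loxl1. Under array centring and under loess correction 2 of the 4 lay below 0, since Loxl1 was close to 0.

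The metalloproteinase with the largest positive difference was Mmp14, a membrane-bound enzyme that cuts collagen and activates the Mmp2 precursor at the cell surface. Mmp14 had 127 in AL and 185 in CR, a difference of 0.54 or 1.46-fold, a value that 7.95% of all measured genes reached. Its second measured probe set, at 20.5 and 22.2, stood at 0.12, and the remaining one lay near background. Mmp2, the gelatinase that Mmp14 activates, read 9.55 and 10.1, a difference of 0.08.

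Of 10 measured metalloproteinase genes, 6 lay above 0 and 4 below, with a median of 0.09 and no difference of 1.5-fold. Mmp24, Mmp16 and Mmp17 are also anchored in the membrane. Mmp24 stood at 0.36, from 22.1 to 28.4, Mmp16 at 0.27, from 9.55 to 11.5, and Mmp17 at 0.32, from 7.21, under the limit, to 9.02, or 1.22-fold or more against the limit. Mmp23, another membrane-anchored enzyme, stood at -0.32, from 12.7 to 10.2, and its second probe set at -0.33. The secreted stromelysin Mmp10 had the lowest value of the 10, -0.48, from 10.6 in AL to 7.54 in CR. Mmp9, the gelatinase of neutrophils and macrophages, stood at -0.26, with 10.2 and 8.50. Mmp7, or matrilysin, of epithelia, read 15.8 and 17.1, and Mmp19 12.4 and 11.9. The interstitial collagenases Mmp8 and Mmp13, the macrophage elastase Mmp12 and the stromelysins Mmp3 and Mmp11 lay near background in both pools, as did the enamel enzyme Mmp20.

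The 4 TIMP genes were all measured, 3 of them above 0, with a median of 0.05. Timp3, the inhibitor that binds to the matrix and also blocks ADAM proteases, stood at 0.49 on its brightest probe set, from 20.3 to 28.5. Its other measured probe sets stood at 0.55, 0.14 and -0.21. Timp2, which takes part in the activation of Mmp2 by Mmp14, stood at -0.14 on its brightest probe set, from 36.0 to 32.6, and at 0.61, 0.34 and 0.12 on its other measured ones. Timp2 therefore changed sign with the probe set. Timp1, which is induced in injured and fibrotic liver, was low in both pools, with 9.45 in AL and 9.91 in CR, a difference of 0.07. Timp4 read 11.5 and 11.7.

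**Figure D3:**
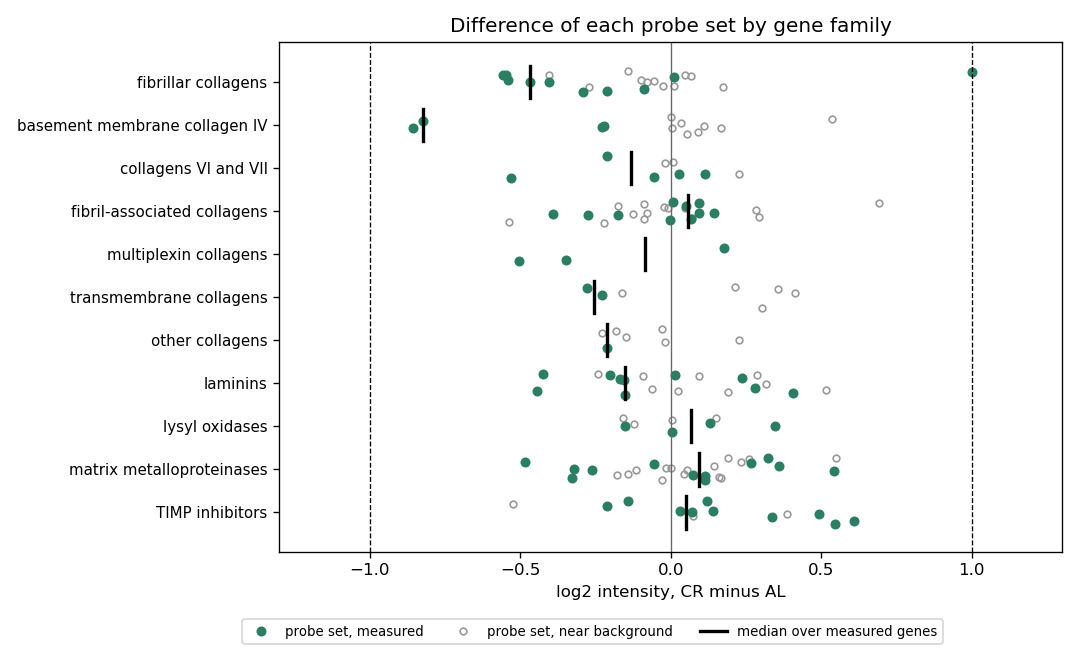
Difference (log2 CR minus AL, horizontal axis) of each of the 149 probe sets by gene family; filled points are the 71 measured probe sets, open points the 78 near background, bars the median over measured genes, dashed lines 2-fold. All 4 measured collagen IV points, both transmembrane collagen points and 8 of 10 fibrillar collagen points lie left of 0, and the brighter Col27a1 point lies on the right dashed line.

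The 23 genes near background had intensities between 2.872 and 7.001 on every probe set. They were the collagen genes Col4a4, Col4a5, Col4a6, Col5a2, Col6a4, Col6a5, Col8a2, Col9a2, Col10a1, Col11a1, Col11a2, Col17a1, Col23a1, Col24a1 and Col26a1, the laminin genes Lama1 and Lama4, and the 6 metalloproteinase genes named above. Their differences ran from -0.40 to 0.55 and are not read here as changes. Besides, 29 of the 53 measured genes had at least 1 further probe set near background.

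Where a gene had several measured probe sets, they often disagreed. This was possible for 13 genes, and 6 of them had probe sets of both signs, 46.2% against 52.7% of 4924 such genes on the array. The median SD among probe sets of a gene was 0.310 for the 13 and 0.288 over the array, and 33 of the 53 measured genes differed by less than 0.288. The other 40 measured genes rested on 1 measured probe set.

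Genes that process collagen were examined as a list of 26, of which 19 were measured. They had a median of -0.09, with 11 below 0 and 8 above, 1 at least 2-fold lower and none higher. P4hb, the disulfide isomerase that is also the beta subunit of collagen prolyl hydroxylase, had 1541 in AL and 736 in CR, a difference of -1.07. P4hb also folds many other secreted proteins. Ppib, the cyclophilin of the prolyl 3-hydroxylase complex, had 920.1 in AL and 576 in CR, a difference of -0.68. The other measured probe set of Ppib stood at -1.25, past 2-fold. Its partner Crtap had 16.8 and 10.9, a difference of -0.63. Colgalt2, a collagen galactosyltransferase, read 10.3 and 6.94, under the limit in CR. The chaperone specific to collagen, Serpinh1 or HSP47, stood at -0.27, with 113 and 94.1, and its other measured probe set at -0.62. The catalytic prolyl hydroxylase genes P4ha1 and P4ha2 stood at 0.29, with 20.45 and 25.004, and at 0.38, with 16.3 and 21.1, opposite in sign to their partner P4hb.

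Other matrix glycoproteins and proteoglycans, 26 measured of 35, had a median of 0.15, with 17 above 0 and 9 below. Their summed intensity went the other way, from 6566 in AL to 4947 in CR. Vtn, the brightest of them, stood at -0.52, from 3488 to 2440, with its other measured probe set at -1.38. Dcn stood at -0.30, from 906 to 735. Fmod, a small proteoglycan of collagen fibres, was at least 2-fold higher at 1.44, from 9.26 to 25.1, but its other 3 measured probe sets reached down to -0.49. Fn1, fibronectin, which hepatocytes secrete into plasma, stood at -0.66, from 1204 to 759, with its other measured probe set at -0.16. Fbln1 stood at 0.58, from 12.1 to 18.1, with its other measured probe set at -0.43, and Tnxb at 0.54, from 12.4 to 18.1. Among 18 measured matrix receptors of 22, the median was 0.04 and Itga8, an integrin chain of stellate and smooth muscle cells, was at least 2-fold lower at -1.21. It rested on 1 measured probe set with 12.7 in AL and 5.48, under the limit, in CR, so the limit bounds its difference at 1.72-fold or more. The next largest were the collagen and fibronectin receptor chain Itgb1 at -0.37, from 34.0 to 26.4, Itgb5 at 0.24, from 258 to 305, and the collagen receptor Ddr1 at -0.22, from 24.01 to 20.66. The 4 measured probe sets of Itgb5 ran from -0.58 to 0.66 and the 6 of Ddr1 from -0.66 to 0.38, so neither gene had a direction that its probe sets shared.

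Fibrogenic signalling genes, 18 measured of 23, had a median of 0.25, with 10 above 0, 8 below and none past 2-fold. Ccn2, the connective tissue growth factor, stood at 0.88, from 43.2 to 79.6. Tgfbr1, the type I TGF-beta receptor, stood at -0.86, from 101 to 55.4. The endothelial receptor Acvrl1 stood at 0.73, from 6.62, under the limit, to 11.0, or 1.49-fold or more against the limit, and Smad4 at 0.67, from 434 to 689, with a probe set at -0.64. The ligand Tgfb1 read 9.17 and 10.7. Other matrix proteases and inhibitors, 23 measured of 29, had a median of -0.08. Pzp, a broad plasma protease inhibitor made by hepatocytes, was at least 2-fold lower at -1.54, from 2194 to 756. Adamts1 stood at 0.71, from 16.3 to 26.7, Adam9 at -0.70, from 258 to 159, and Adamts7 at -0.64, from 8.94 to 5.75, under the limit, which bounds its difference at 1.21-fold or more.

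**Figure D4:**
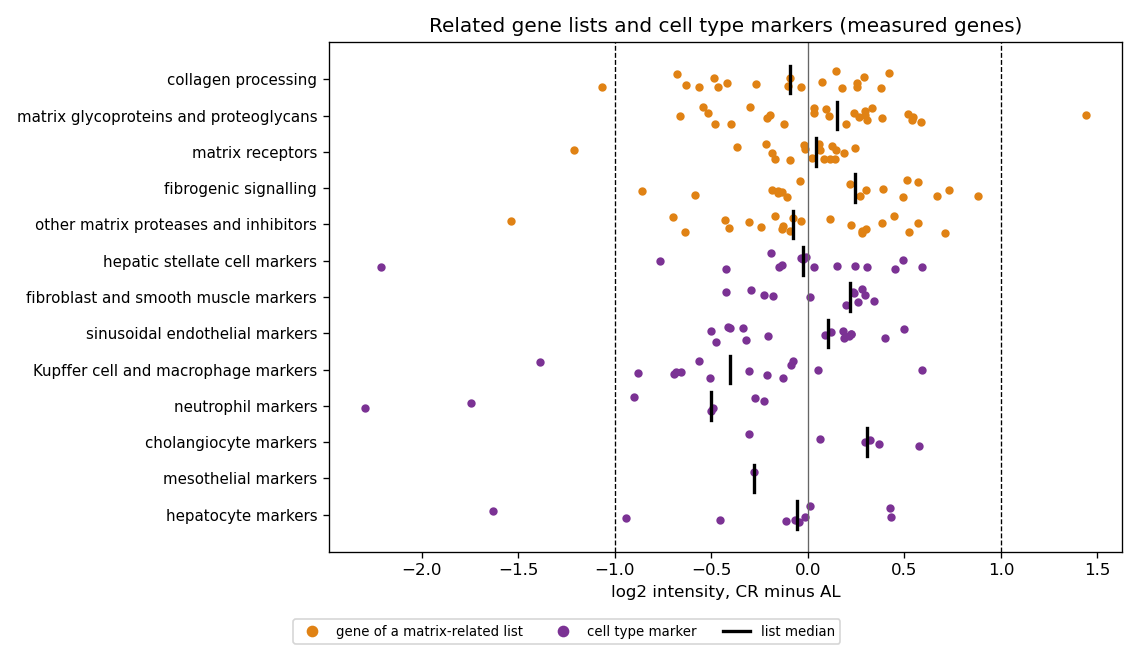
Difference (log2 CR minus AL, horizontal axis) of each measured gene in 5 matrix-related lists and 8 lists of cell type markers; bars are list medians and dashed lines 2-fold. The matrix-related medians lie between -0.09 and 0.25, and the Kupffer cell and neutrophil medians at -0.41 and -0.50.

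The pools carried the transcripts of liver, with Alb at 12765 and 11794, Apoa1 at 13936 and 14045 and Ttr at 13299 and 12700 in AL and CR. Markers of the cells that make matrix showed no shared direction. Of 17 measured hepatic stellate cell markers, 10 lay below 0 and 7 above, with a median of -0.02. The retinol-esterifying enzyme Lrat, which defines these cells, stood at -0.76, Des at -0.02 and Reln at 0.31. Steap4, a metalloreductase on this list, was at least 2-fold lower at -2.21. Summed over the measured stellate markers, intensity was 2426 in AL and 1773 in CR, and without Steap4 1343 and 1539. Fibroblast and smooth muscle markers, 12 measured of 18, had a median of 0.22 and sums of 284 and 313, with Gli1, Cd34, Cnn1, Myh11, Myl9 and Ogn near background. Sinusoidal endothelial markers, 16 measured of 17, had a median of 0.10 and sums of 1252 and 1258, with Pecam1 near background.

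Most immune cell markers read lower in the CR pool. Kupffer cell and macrophage markers, 14 measured of 15, had 12 below 0, a median of -0.41 and sums of 3686 and 3193. Lyz2 stood at -1.39, Clec4f at -0.69 and C1qa at -0.68. The brightest of these markers differed little, with Cd5l at -0.08, from 765 to 724, and Csf1r at -0.09, from 747 to 703. The measured probe sets of Csf1r reached up to 0.18. Marco stood at -0.13. Timd4 read 10.4 in AL and 5.63, under the limit, in CR, so the limit bounds its difference at 1.41-fold or more. The exceptions were Cd163, a scavenger receptor of macrophages, at 0.59, from 69.2 to 104, and C1qb at 0.05, with its measured probe sets between -1.25 and 0.12. All 7 measured neutrophil markers of 10 lay below 0, with a median of -0.50 and sums of 159 and 72.6. In 2 of the 7 a value was under the limit, and with such values set to it the median was -0.49. The lowest were S100a8 at -2.29 and S100a9 at -1.75, while the neutrophil markers Mpo, Ltf and Camp lay near background. Their part in the values of the matrix genes, such as Mmp9, was not tested. Cholangiocyte markers, 6 measured of 8, had a median of 0.31, or 0.18 with values under the limit set to it, and sums of 120.5 and 130, and of 6 mesothelial markers 1 was measured. Hepatocyte markers, all 10 measured, had a median of -0.06 and sums of 67281 and 60843. The fibrinogen chain Fgb, at -1.63, was the 1 hepatocyte marker at least 2-fold lower.

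Signal at the 3' end far exceeded that at the 5' end in both pools, with a 3' to 5' ratio of 83.5 in AL and 89.7 in CR for beta-actin and of 46.9 and 53.2 for Gapdh. The ratio of the 3' end to the middle differed more between the pools. It was 11.1 in AL and 20.4 in CR for beta-actin, and 4.46 and 6.04 for Gapdh. The part of this excess at the 3' end in the dimness of probe sets for these long transcripts was not tested. Nor was its part in the differences between the pools. Scaling the arrays on the hybridisation spikes in place of the deposited normalization moved the median of all measured genes by 1.02, to -1.04, and put all 53 matrix genes below 0, so every direction given here is relative to the typical gene.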

How the data were processed

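Affymetrix arrays were run on 2 liver RNA pools, AL and CR, 1 array each. The deposited intensity values were made by the authors with RMA (background correction, normalization between arrays, summary per probe set), per the submitters' processing notes. They are on a linear scale (medians 7.35 and 7.42, maxima 18092 and 14045). The sources used here gave neither an RMA version nor detection calls. No column was left out.

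Values were transformed to log2 and subtracted, CR minus AL. Symbols came from the platform annotation of 2016, where 34945 probe sets had 1 symbol, 932 several and 9160 none, besides 64 control probe sets. All 76 genes matched RefSeq (GRCm38.p6) by Entrez ID, and promoter sequence came from RefSeq. A gene is under the limit where its intensity is below 7.38, and bounds set such a value to the limit. Named are all measured members and, by name, those near background. In each matrix-related list the 4 genes of largest absolute difference and all past 2-fold are named, with members past 2-fold in the marker lists. Serpinh1, P4ha1, P4ha2, Tgfb1, Vtn and Dcn were added after their values were seen. So were the markers Alb, Apoa1, Ttr, Lrat, Des, Reln, Timd4, Clec4f, C1qa, Cd163, C1qb, Cd5l, Csf1r and Marco. Of the marker lists, the stellate, fibroblast and Kupffer cell lists share 2, 3 and 1 genes with other lists. The members and lists were chosen with earlier results of these data known. The steps were tested on simulated data with planted differences. The work used matplotlib 3.10.9, pandas 2.3.3 and numpy 2.4.6 under Python 3.11.15, with loess from statsmodels 0.14.6.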

Additional observations from a re-analysis of the deposited data

How the results depend on the processing

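No paired analysis was possible because each diet had 1 array, and no replicate could be left out. With no replicates, a difference was taken as moved when it shifted by more than 0.288, the median SD among probe sets of a gene. Col27a1, the 1 matrix gene at 2-fold, was under it with the mean over all probe sets and with arrays centred on their medians (count 0 each). Col4a1 was -0.54 with the mean over all probe sets. Scaling on the hybridisation controls gave 0 matrix genes higher and 32 lower, a median of -1.11, Col27a1 at -0.016, and 33 and 6857 of all genes higher and lower. The same scaling gave list medians of -1.11 (collagen processing), -0.86 (glycoproteins), -0.98 (receptors), -0.77 (fibrogenic signalling) and -1.09 (other proteases), with 11, 9, 8, 8 and 13 genes lower and 0 glycoprotein genes higher. At 1.5-fold, 2 matrix genes were lower, Col4a1 and Col4a2, as were 1200 of all genes, with 855 higher. The 5 lists then had 3, 1, 1, 1 and 3 genes lower, and fibrogenic signalling and other proteases had 3 and 1 higher. The mean over all probe sets gave 110 and 230 of all genes higher and lower, and 0 for Fmod and Itga8, the 1 glycoprotein and 1 receptor gene past 2-fold. Without _x_at, _s_at and _a_at probe sets no glycoprotein gene was higher (0), and at the 75th percentile limit no receptor gene was lower (0). Genes near background numbered 0 with no limit, 60 at the 75th percentile, and 78 as probe sets. Counting probe sets gave 404 and 603 of all higher and lower, 1 higher and 3 lower in collagen processing, and 1 lower among glycoproteins. Counts were taken as moved when they changed by more than 1.5 times. By these tolerances removing a loess trend (span 0.4) moved no count at 2-fold and no median. It gave 244 and 333 of all genes higher and lower, against 227 and 353. The lysyl oxidase genes below 0 went from 1 to 2 of 4. Among marker lists, stellate markers at least 2-fold lower were 0 and Kupffer cell markers 2 without the same probe set types, and the neutrophil median was -1.12 at the 75th percentile limit. The cholangiocyte median was -0.07 with the mean over all probe sets and -0.12 at the 75th percentile limit, below 0 in both, against 0.31. Low signal over background limits most of these genes.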

Other observations

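Probe sets outside the rule bear on the same families. Loxl2, a lysyl oxidase of basement membrane, was covered by probe sets that also name Gm21451, and these read 13.9 in AL and 10.3 in CR, and 3.68 and 3.46. The collagenase genes Mmp1a and Mmp1b, whose symbols carry a letter after the number, read 3.59 and 4.60, and 3.65 and 3.51, all near background.

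Other collagen genes that are direct neighbours in RefSeq can be set beside Col4a1 and Col4a2. Col6a1 and Col6a2 stood at -0.21 and 0.11. Col3a1 stood at -0.29 beside Col5a2 at -0.40, the latter near background in both pools. Col4a3 stood at -0.22 beside Col4a4 at 0.00, also near background, and Col9a1 and Col19a1 stood at 0.01 and 0.09. These pairs were singled out after their values were seen and were not tested.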
